A study of Mus musculus with 4 samples.

Results

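The AP-1 immediate-early genes were followed in single cells sorted as mouse bone vessel cells, as 10 genes taken by symbol out of 27998 in the files: Jun, Junb, Jund, Fos, Fosb, Fosl2, Atf3, Maff, Ier2 and Egr1. The genes, and the cell classes in which they were read, were selected on label differences in their levels that earlier looks at these libraries had shown, so the values below describe that choice and carry no test. The 4 libraries come from sorted lineage-depleted cells that carried endomucin, VE-cadherin and CD31. Sca-1+ cells are labelled H vessel, a type of bone capillary, and Sca-1- cells sinusoidal. Each gate has 1 knockout library, with genotype ID1 -/- ID3-/-, and 1 control library, titled WT but with genotype ID1 +/+ ID3+/-. Per the labels, tamoxifen was injected on 5 days to delete Id1, and mice of both genotypes carry CDH5-CreER, a Cre under an endothelial promoter. The labels do not say how many mice a library pools.

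AP-1 is a family of dimeric transcription factors built from Jun, Fos, ATF and Maf proteins, which bind DNA through a basic leucine zipper. Its immediate-early members are transcribed within minutes of a stimulus such as a growth factor, a cytokine, adhesion or stress, through factors that are already present in the cell, and their mRNAs are short-lived. In blood formation they are known for roles in stem cell quiescence, in monocyte and plasma cell differentiation and in inflammatory responses, and they are also known to respond when tissue is dissociated into single cells.

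The libraries held 3641 barcodes, of which 3567 passed a filter of at least 200 genes and under 10% mitochondrial unique molecular identifiers (UMIs). The type H gate gave 1857 cells from the library labelled knockout and 806 from its control, and the sinusoidal gate 553 and 351. Totals lay between 3234772 and 11065352 UMIs per library, and the median per cell was 15428 UMIs in the sinusoidal library labelled knockout and between 5597 and 6420 UMIs in the others. Barcodes shared between libraries numbered 4. The labelled cell type was hardly present: Cdh5, Kdr, Stab2, Flt4, Plvap and Ptprb together had 96 UMIs, and 1 cell had UMIs of at least 2 of them, while 95.1% of cells had a UMI of Ptprc, Laptm5 or Coro1a, which mark blood cells. Id3 goes against the labels. Its level was 84.9 counts per 1000000 UMIs (CPM) in the type H library labelled knockout and 33.0 CPM in the matching control, and in the sinusoidal libraries 84.8 CPM under the knockout label and 54.7 CPM under the control label. Within the type H and sinusoidal controls, Id3 stood at 4.34 and 6.39 CPM in cells that had Xist UMIs but none of Y-linked genes, and at 38.8 and 52.6 CPM in cells with the reverse. Id1 did not differ by label beyond counting error. It had 2.99 CPM (33 UMIs) under the knockout label and 4.08 CPM (23 UMIs) under the control label in the type H gate. In the sinusoidal gate Id1 had 26.3 CPM (218 UMIs) and 26.1 CPM (83 UMIs). The deleted part of either gene is not given, and 3′ tags outside it would check nothing, so knockout and control are used below as labels only.

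With 1 library per group there is no replicate check, and no difference below was tested. Intervals are at the 95% level and take in counting error alone. Levels are CPM of the UMIs summed over the cells of a class in 1 library, and a ratio is the labelled knockout over the control. Since a 3′ UMI count depends on the gene, levels are compared between classes and labels, not between genes.

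The promoters of the members are shown because 5 of the 8 with a RefSeq start share letters of the cAMP response element (CRE), the site bound by CREB and ATF dimers. RefSeq (GRCm38.p6) gave 10 start sites for 8 members, with none for Ier2 and Egr1, and windows of 300 bases (250 before and 50 after the start) were searched on both strands. The 10 include a window of Jund whose RefSeq start, just after chr8:70697738, lies upstream of the gene start at 70698949 in the gene annotation. The windows of Atf3 and Fosl2 and the printed window of Maff lie inside the annotated genes, past their starts at chr1:191218039, chr5:32135801 and chr15:79346621. The AP-1 letters TGACTCA or TGAGTCA were in 0 of 10 windows, beside 5.20% of 32851 windows of all genes. The full CRE letters TGACGTCA were in 1 of 10, against 1.79%, and the CArG box, the site of serum response factor, was in 0 of 10, against 1.63%. The CRE core letters TGACG, which overlap the full CRE and were searched after the sequences had been seen, were in 6 of 10 windows, of Atf3, Fos, Fosb, Junb and Maff, against 20.8% of all windows. The TATA letters TATAAA, also added then, were in 2 of 10, against 13.6%. The 100 bases before the start are given 5′ to 3′ on the strand of the gene, with the matched letters in capitals (CGTCA is TGACG read on the other strand).
Fos, chr12:85473790-85473889, plus strand: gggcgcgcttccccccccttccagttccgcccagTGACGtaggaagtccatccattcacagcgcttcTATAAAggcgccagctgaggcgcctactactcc
Fosb, chr7:19310046-19310145, minus strand: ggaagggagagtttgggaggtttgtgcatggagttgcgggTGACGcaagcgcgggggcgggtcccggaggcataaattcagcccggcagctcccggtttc
Maff (1 of its 3 start sites), chr15:79347420-79347519, plus strand: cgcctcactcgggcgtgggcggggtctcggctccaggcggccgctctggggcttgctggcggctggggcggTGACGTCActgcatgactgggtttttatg
Atf3, chr1:191183334-191183433, minus strand: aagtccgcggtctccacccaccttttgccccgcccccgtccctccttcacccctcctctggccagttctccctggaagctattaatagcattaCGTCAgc
Counted from the base before the start as -1, the TGACG letters began at -66 in Fos with the TATA letters at -33, at -60 in Fosb, within the full CRE letters at -29 in Maff and at -7 in Atf3. A match of letters is a description of the window and shows no binding. A count of 0 covers the letters searched within these 300 bases, and variant letters or more distant sites were not searched. In the gene annotation of the same build, 5 members without a printed window lie at chr4:95049034-95052222 (Jun), chr5:32135801-32157842 (Fosl2), chr8:70698949-70700616 (Jund), chr8:84974484-84978718 (Junb) and chr8:84661331-84662852 (Ier2).

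Cells of the type H gate with at least 1 UMI of Hlf, a transcription factor gene of blood stem cells, numbered 1255 in the library labelled knockout and 549 under the control label, with Jchain-high cells (Jchain at least 1% of UMIs) left out. In them all 10 members stood higher in the library labelled knockout. Members at least 1.5-fold higher were 7 of 10, and members at least 1.5-fold lower 0 of 10, where 5.13% and 2.9% of 11509 genes with at least 20 UMIs were that far up or down. Since these cells are among those the genes were picked in, nothing is read from that count. The median log2 ratio of the members was 0.67, and that of all genes -0.05. Among the 1023 and 492 of these cells with 3000 to under 12000 UMIs, a range chosen after seeing the levels by depth, 6 of 10 members were at least 1.5-fold higher and 0 lower, beside 6.25% and 3.27% of all genes.

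Of the Jun family, whose proteins can pair with themselves or with Fos proteins, Jund had the highest ratio. Jund, which unlike Jun and Junb is known for steady expression in resting cells, had 919 CPM (7069 UMIs) under the knockout label and 441 CPM (1727 UMIs) under the control label, a ratio of 2.08 (1.98 to 2.20). Jun, the founding member, had 546 CPM under the knockout label and 358 CPM under the control label, a ratio of 1.53 (1.44 to 1.62). Junb, known to restrain proliferation of blood stem and myeloid cells, had 955 CPM under the knockout label and 718 CPM under the control label, a ratio of 1.33 (1.27 to 1.39). The Jund ratio thus lay above that of Jun, and the Jun ratio above that of Junb, with intervals that did not meet.

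Of the Fos family, Fos had 1202 CPM under the knockout label and 876 CPM under the control label. Its ratio was 1.37 (1.32 to 1.43). Fosb, a close relative of Fos, had 89.7 CPM under the knockout label and 59.5 CPM under the control label, a ratio of 1.51 (1.298 to 1.76). Fosl2, which encodes Fra-2, had 29.9 CPM under the knockout label and 17.1 CPM under the control label, a ratio of 1.75 (1.33 to 2.33). Their intervals leave out 1, and those of Fosb and Fosl2 overlap widely.

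Atf3, a stress-induced member that can repress its targets, had the highest ratio on the fewest UMIs. It had 135 UMIs (17.5 CPM) under the knockout label and 18 UMIs (4.59 CPM) under the control label, a ratio of 3.82 (2.33 to 6.64). Maff, a small Maf protein with no transactivation domain, had 58.4 CPM under the knockout label and 35.2 CPM under the control label, a ratio of 1.66 (1.37 to 2.02). Ier2 and Egr1 are no AP-1 proteins but are switched on by the same signals. Egr1, a zinc finger factor known in stem cell quiescence, had 178 CPM under the knockout label and 106 CPM under the control label, a ratio of 1.67 (1.498 to 1.87). Ier2, a nuclear protein of the immediate-early response, had 758 CPM under the knockout label and 620 CPM under the control label, a ratio of 1.22 (1.17 to 1.28), the lowest of the 10.

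**Figure D1:**
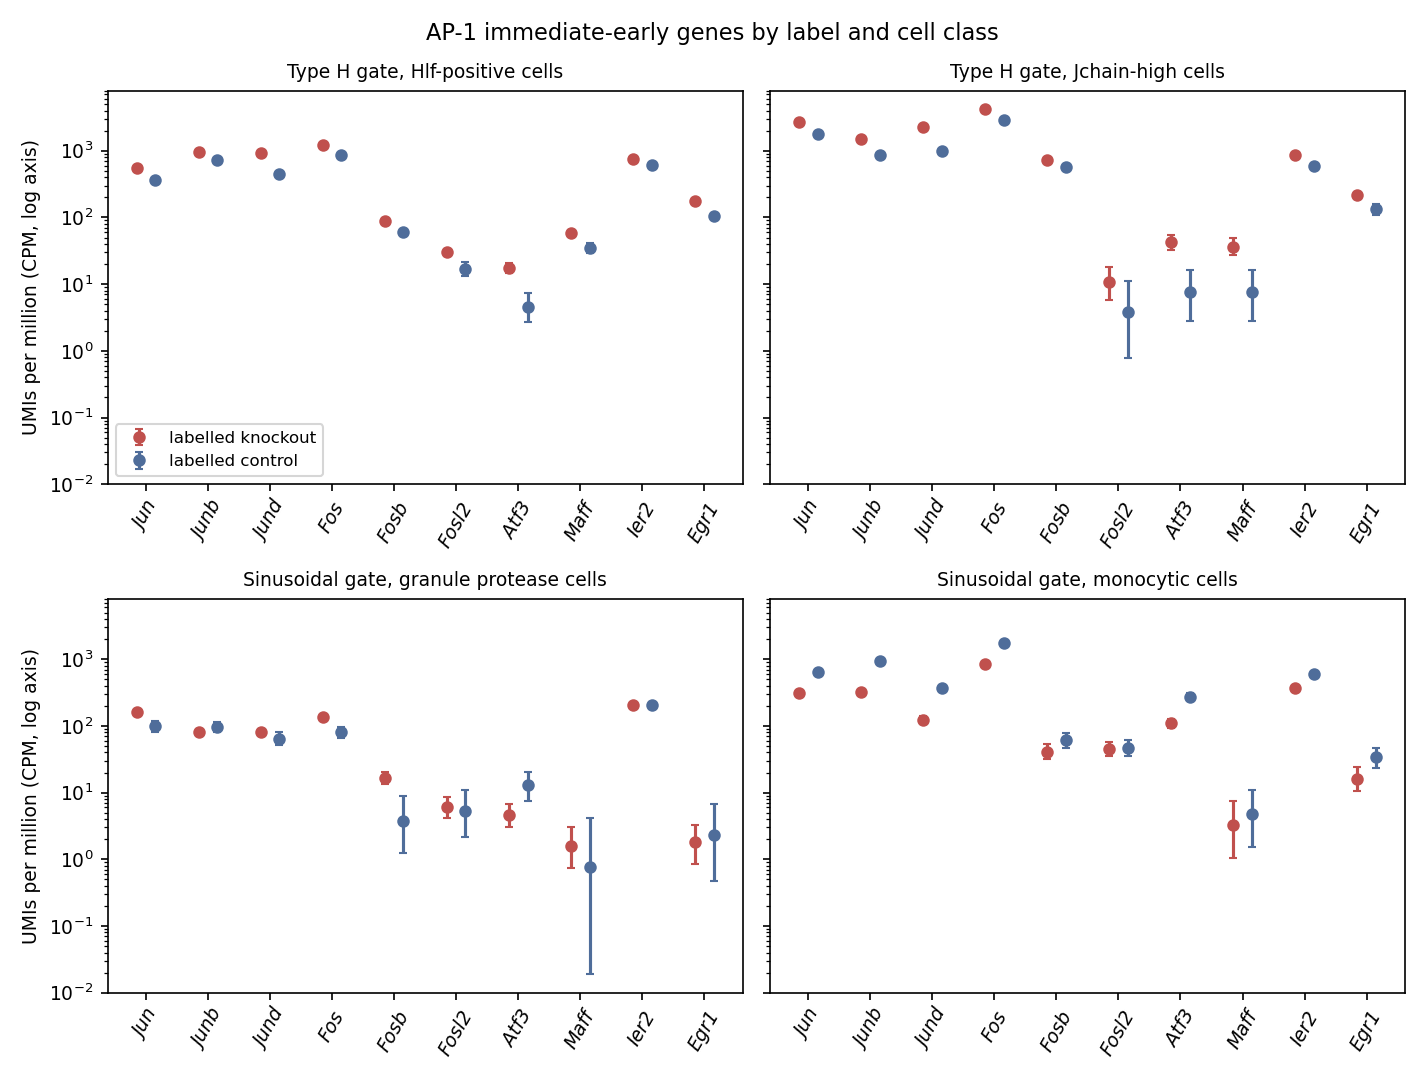
Levels of the 10 genes in 4 cell classes, in CPM on a log axis, with the labelled knockout in red at the left of the labelled control in blue; points are sums over the cells of 1 library and bars are exact Poisson intervals at the 95% level. In Hlf-positive cells every red point lies above its blue one, from 1202 against 876 CPM for Fos to 17.5 against 4.59 CPM for Atf3, while in monocytic cells most lie below, as for Jund at 123 against 372 CPM.

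Marker levels of other cell types in the same Hlf-positive cells bear on these values. The 4 plasma cell markers summed to 597 CPM under the knockout label and 592 CPM under the control label, with none at 0, and most of this was Jchain, at 464 and 454 CPM. Jchain-high cells held 124789 CPM of Jchain under the knockout label and 193357 CPM under the control label, so plasma RNA at the level of Jchain would make up 0.372% and 0.235% of the RNA of Hlf-positive cells. At that share it would bring 8.48 CPM of Jund under the knockout label and 2.34 CPM under the control label, which is 0.922% and 0.531% of the Jund measured, and the highest such part over the 10 genes was 3.01%, for Fosb under the knockout label. The 4 later neutrophil markers had 4239 UMIs under the knockout label, with none at 0, and 36 under the control label, with 1 at 0. Of the 4239, 4077 were in 2 cells and 162 in the other 1253. The plasma shares above take stray RNA to have the make-up of Jchain-high cells. The part of plasma or neutrophil RNA in the ratios was not tested.

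Counted cell by cell at an equal depth of 2000 UMIs, the difference lay in many cells. Jund had a UMI in 69.7% of thinned Hlf-positive cells (67.0 to 72.3) under the knockout label and in 51.6% (47.3 to 55.8) under the control label. The share of Jun was 46.3% under the knockout label and 32.2% under the control label, that of Egr1 26.6% and 18.6%, and that of Atf3 2.64% and 0.737%. These shares rest on 1211 and 543 cells, with 44 and 6 shallower cells left out. Before thinning, at median depths of 5774 and 6457 UMIs, the shares of Jund were 87.5% under the knockout label and 80.3% under the control label. No class of these libraries is known to lack these genes. Granule protease cells of the sinusoidal gate had the lowest thinned shares of Jund, 10.9% under the knockout label and 8.57% under the control label, at unthinned medians of 16819 and 17702.5 UMIs.

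The sum of the 10 genes per thinned Hlf-positive cell had a median of 9 UMIs under the knockout label and 6 UMIs under the control label. The quartiles differed: the 25th and 75th percentiles were 4 and 14 UMIs under the knockout label, against 3 and 10 UMIs under the control label, and the 95th 24 UMIs against 18.9. Cells with no UMI of any member made up 5.28% (64 cells) under the knockout label and 7.92% (43 cells) under the control label.

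Splitting the type H gate by the UMIs of other genes showed how evenly each member carried the label difference. Cells without an Hlf UMI numbered 433 under the knockout label and 149 under the control label, and in them 5 of 10 members were at least 1.5-fold higher and 0 lower, beside 9.56% and 8.97% of all genes. Jun had 492 CPM under the knockout label and 501 CPM under the control label there, a ratio of 0.981 (0.878 to 1.10), and Fosb 88.3 and 87.4 CPM, a ratio of 1.01 (0.773 to 1.33). Jund had 1009 CPM under the knockout label and 508 CPM under the control label, a ratio of 1.99 (1.80 to 2.20). So Jun and Fosb differed by label in Hlf-positive cells and showed no difference beyond counting error in Hlf-negative ones, while Jund stood higher in both. Hlf-negative cells were shallower, at medians of 4133 UMIs under the knockout label and 5391 under the control label, against 5774 and 6457 in Hlf-positive cells. A cell can miss Hlf by depth alone, and the part of depth in this contrast was not tested. Over 7 classes of the gate the Jund ratio lay between 1.90 and 2.29 and the Egr1 ratio between 1.52 and 1.73, each with an interval above 1 in all 7, whereas the Atf3 ratio lay between 2.09 and 14.2. These classes share cells, as a cell can be Hlf-positive and Procr-positive at once.

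Procr encodes EPCR, a surface protein of the most primitive blood stem cells. Procr-positive cells (771 under the knockout label and 391 under the control label) had 6 of 10 members at least 1.5-fold higher and 0 lower, beside 5.4% and 4.1% of all genes. Fos had 1319 CPM in Procr-positive cells of the labelled knockout and 1009 CPM in those of the control, a ratio of 1.31 (1.25 to 1.37). Within each library it stood higher in Procr-positive than in Procr-negative cells, by 1.301-fold (1.25 to 1.35) under the knockout label and 1.43-fold (1.35 to 1.53) under the control label. Junb did so too, by 1.17-fold (1.12 to 1.22) under the knockout label and 1.38-fold (1.29 to 1.48) under the control label.

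Flt3 encodes a cytokine receptor of progenitors that have left the stem cell state. Flt3-positive cells (357 under the knockout label and 157 under the control label) had 4 of 10 members at least 1.5-fold higher and 0 lower, beside 7.03% and 6.73% of all genes. Atf3 had 28 UMIs under the knockout label and 1 UMI under the control label in these cells, a ratio of 14.2 (2.34 to 579). Maff had 34.3 CPM under the knockout label and 31.6 CPM under the control label, a ratio of 1.08 (0.741 to 1.61), so it showed no label difference beyond counting error there. Within both libraries most members stood lower in Flt3-positive than in Flt3-negative cells, the exceptions being Fosl2 in either library and Maff under the control label, whose intervals take in 1. Egr1 was at 0.511 of the Flt3-negative level (0.446 to 0.583) under the knockout label and 0.561 (0.440 to 0.708) under the control label. For Junb the same ratio was 0.681 (0.647 to 0.717) under the knockout label and 0.686 (0.631 to 0.746) under the control label, and for Fosb 0.512 (0.423 to 0.616) and 0.505 (0.365 to 0.687). The sides of these splits differ in depth, with median UMIs of 6287 in Flt3-positive and 5210 in Flt3-negative cells of the knockout library, and of 7020 and 6221 under the control label.

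**Figure D2:**
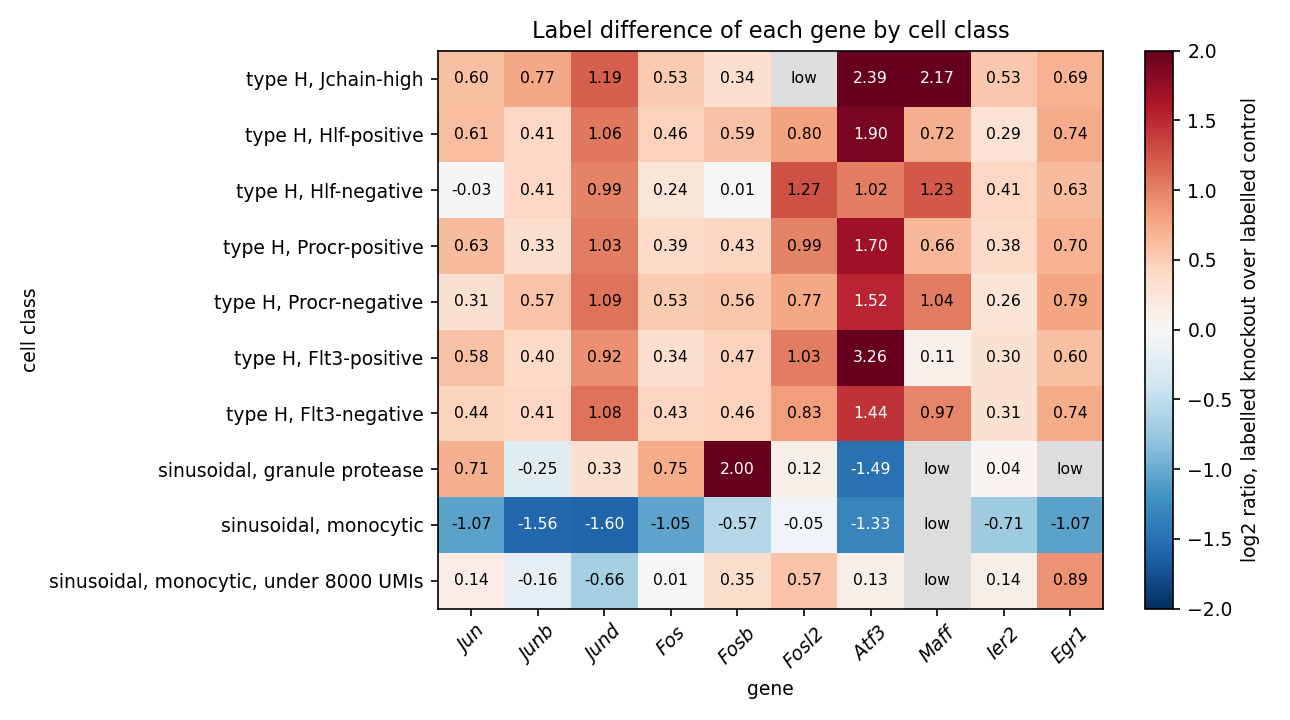
Log2 ratio of the labelled knockout over the labelled control for each gene (columns) in each cell class (lines of the grid), with red for higher and blue for lower under the knockout label; grey squares marked low had under 20 UMIs in both libraries together. Jund is near 1 in all type H classes (0.92 to 1.19), Jun is -0.03 in Hlf-negative cells, and the signs turn in monocytic cells of the sinusoidal gate taken as a whole. Among the monocytic cells under 8000 UMIs they do not turn for most members: 8 of 10 were above 0, with a median of 0.14.

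Jchain-high cells, selected for Jchain, an antibody chain gene of plasma cells, were the class with the highest levels of several members. Over each whole library, 1 and 0 cells lay within 20% of the Jchain limit, on either side. There were 169 Jchain-high cells under the knockout label and 108 under the control label. Fosb was 8.13-fold (7.41 to 8.93) higher in them than in the other type H cells of the knockout library, and 8.87-fold (7.66 to 10.3) higher under the control label. The same comparison gave 5.04-fold and 4.63-fold for Jun, and 3.60-fold and 3.33-fold for Fos. Fosl2 and Maff stood lower in Jchain-high cells, on few UMIs. Fosl2, with 14 UMIs there under the knockout label and 3 under the control label, was at 0.357 (0.192 to 0.608) and 0.235 (0.0474 to 0.712) of the level of other cells. Maff, with 48 and 6 UMIs, was at 0.653 (0.475 to 0.878) and 0.235 (0.0849 to 0.523). Within the Fos family, Fosb and Fos thus stood higher in these cells and Fosl2 lower.

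By label, 6 of 9 members with enough UMIs were at least 1.5-fold higher in Jchain-high cells of the labelled knockout and 0 lower, beside 17.4% and 5.45% of all genes, whose median log2 ratio was 0.14. Jund had 2280 CPM under the knockout label and 997 CPM under the control label, a ratio of 2.29 (2.11 to 2.48). Fos had 4197 CPM under the knockout label and 2916 CPM under the control label, a ratio of 1.44 (1.37 to 1.51). Maff had 48 UMIs under the knockout label and 6 under the control label, a ratio of 4.83 (2.06 to 13.8). Relative to the median gene, 4 of 9 members passed 1.5-fold, the median over all 10 was 0.59 on the log2 scale, Jund stood at 1.05 and Fos at 0.39. The Jchain level itself differed between the labels, as given above. The 4 granule proteases summed to 505 CPM (664 UMIs) under the knockout label and 36.5 CPM (29 UMIs) under the control label in these cells, and the 4 later neutrophil markers to 102 and 31.5 CPM. The 6 monocyte markers summed to 4457 CPM under the knockout label and 2979 CPM under the control label. Of the 6, 0 and 4 had no UMI. The 3 erythroid markers summed to 71.5 CPM under the knockout label and 21.4 CPM under the control label. The part of Jchain and of these markers in the ratios was not tested. In the 21 and 33 Jchain-high cells that had Xist UMIs and none of Y-linked genes, 1 of 7 members was at least 1.5-fold higher and 0 lower, beside 18.8% and 10.4% of all genes. Ier2 stood lower there, at 521 CPM under the knockout label and 735 CPM under the control label, a ratio of 0.708 (0.537 to 0.927). In the 79 and 42 Jchain-high cells with the reverse, Ier2 had 957 CPM under the knockout label and 464 CPM under the control label, a ratio of 2.06 (1.72 to 2.48).

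Depth per cell moved with the level of most members. Cells of the type H gate outside Jchain-high were read in bands of under 3000, 3000 to under 6000, 6000 to under 12000 and at least 12000 UMIs, which held 303, 712, 589 and 84 cells of the labelled knockout and 35, 264, 345 and 54 of the control. Junb had 1113, 1112, 982 and 330.2 CPM from the lowest to the highest band under the knockout label, and 1002, 833, 793 and 256 CPM under the control label. Its level in the highest band was 0.297 of that in the second band (0.267 to 0.329) under the knockout label and 0.307 (0.264 to 0.357) under the control label. Ier2 gave 0.390 and 0.391, Jund 0.481 and 0.395, and Jun 0.705 and 0.787 by the same measure. The deepest cells thus held lower levels of these genes under both labels, Jun least so.

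The label difference was read inside those bands. Members at least 1.5-fold higher were 3 of 9, 3 of 10, 5 of 10 and 7 of 10 from the lowest to the highest band, beside 19.3%, 6.76%, 6.45% and 8.07% of all genes. No band had a member at least 1.5-fold lower (0 members), beside 23.6%, 7.91%, 4.02% and 8.92% of all genes, and the median log2 ratio of the members was 0.43, 0.46, 0.59 and 0.88. Jund had 1244, 1042, 932 and 501 CPM under the knockout label, against 501, 542, 483 and 214 CPM under the control label, so that its ratios lay between 1.92 and 2.48, all with intervals above 1. Jun had 578 CPM under the knockout label and 797 CPM under the control label in the lowest band, a ratio of 0.725 (0.554 to 0.964), and higher levels under the knockout label in the other 3 bands. That low band held 35 control cells. With band limits of 2000, 4000 and 8000 UMIs the median of the members was 0.97, 0.09, 0.57 and 0.58, where the control had 14 and 57 cells in its lowest bands.

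**Figure D3:**
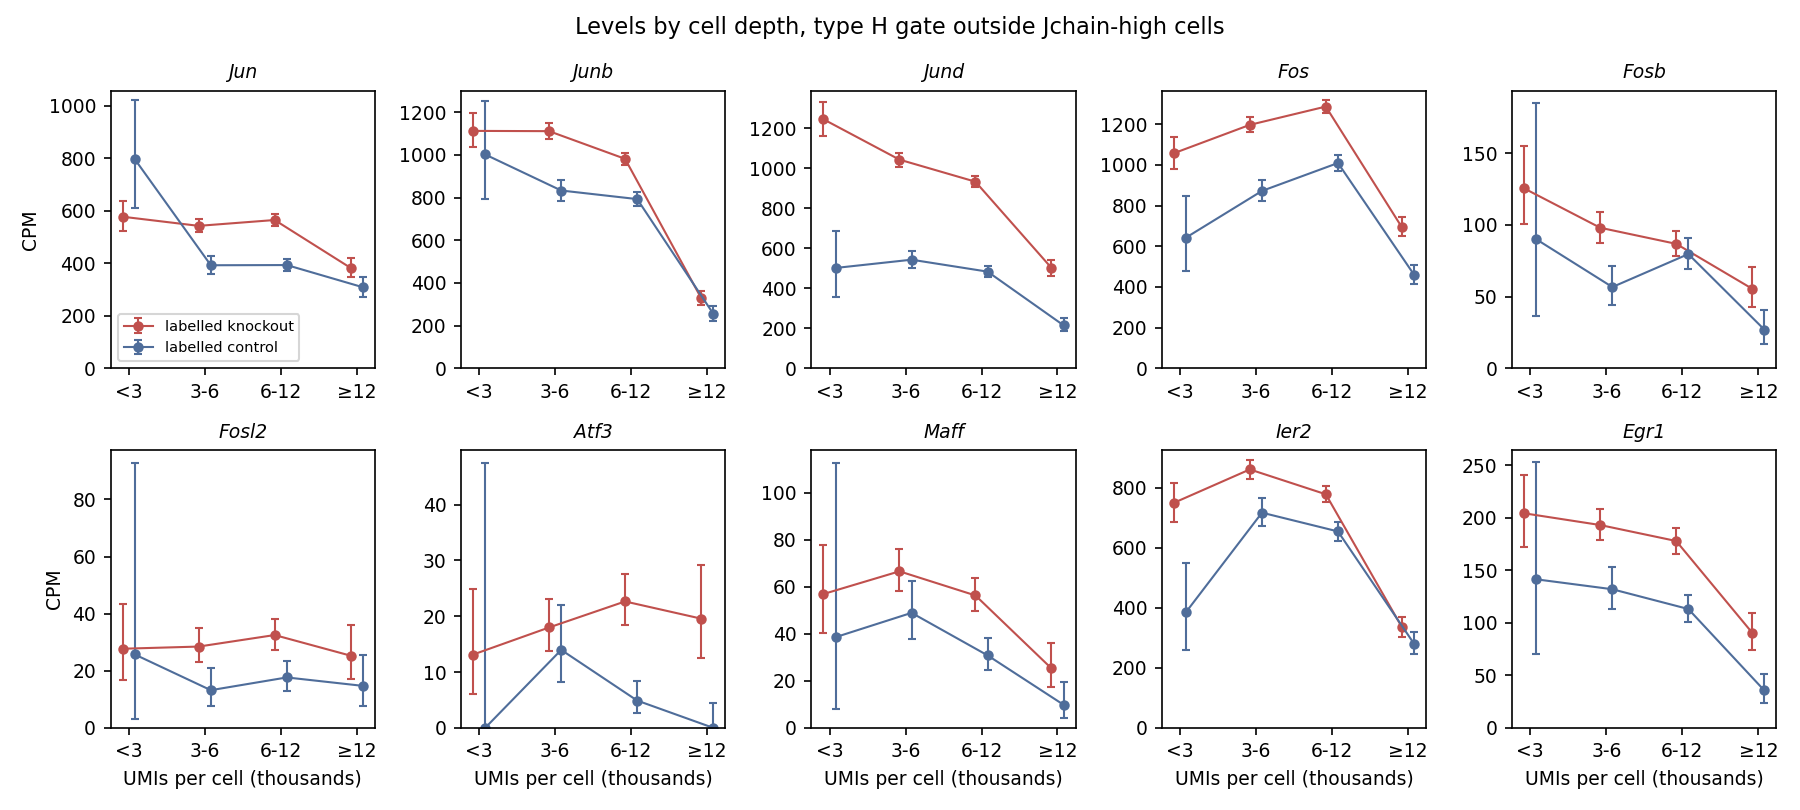
Level of each gene in CPM (linear axes from 0) by band of cell depth (UMIs), type H gate outside Jchain-high cells, labelled knockout in red and labelled control in blue, with Poisson intervals at the 95% level. The red and blue lines of Jund stay apart over the 4 bands (501 against 214 CPM in the deepest), those of Jun cross in the shallowest, and both lines of Junb drop in the deepest band to 330.2 and 256 CPM.

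Since Id3 levels within the control libraries went with sex-linked genes, Hlf-positive cells were also split by those genes. Xist cells, with Xist UMIs and none of Y-linked genes, numbered 84 under the knockout label and 104 under the control label, and Y-linked cells, with the reverse, 698 and 302. In the Xist cells 4 of 9 members were at least 1.5-fold higher and 0 lower, beside 10.1% and 10.9% of all genes. In the Y-linked cells 6 of 10 were higher and 0 lower, beside 5.72% and 4.51%. The Jund ratio was 2.12 (1.84 to 2.44) in the Xist cells and 2.12 (1.98 to 2.28) in the Y-linked cells. The Jun ratio was 2.70 (2.29 to 3.20) in the Xist cells, with 799 CPM under the knockout label and 296 CPM under the control label, and 1.44 (1.34 to 1.56) in the Y-linked cells. Atf3 had 14 UMIs in Xist cells of the labelled knockout and 0 in those of the control. The interval of this ratio started at 4.51 and had no upper limit. With so few UMIs, Atf3 was not among the 9 members counted in the Xist cells. In the Y-linked cells Atf3 was 2.65-fold (1.59 to 4.66) higher. Over all type H cells outside Jchain-high, Atf3 had 0 UMIs in 137 Xist cells of the control, with an interval up to 4.06 CPM. It had 8.85 CPM in the 381 Y-linked cells of the control. A cell can miss Xist or the Y-linked genes by depth alone, so these groups leave out many cells.

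In Hlf-positive cells, most pairs of members had an r above 0 from cell to cell within 1 library. Over 1211 Hlf-positive cells of the labelled knockout, thinned to 2000 UMIs, the mean Pearson r over the 45 pairs of members was 0.16, with 45 of 45 pairs above 0. Over 543 cells of the control it was 0.10, with 40 of 45 above 0. The highest pairs were Junb with Fos under the knockout label, at 0.36, and Junb with Ier2 under the control label, at 0.32. The 4 highest pairs in either library were among Junb, Fos, Ier2, Jun and Jund, while pairs of the sparsest genes, such as Fosb with Atf3 at 0.02 under the knockout label and -0.02 under the control label, were near 0, where sparse counts leave r little room. The cells of a library share its preparation, and the r of the summed members with log depth before thinning was -0.12 under the knockout label and -0.13 under the control label. In 169 Jchain-high cells of the labelled knockout the highest pair was Jun with Fos, at 0.56, and in 132 monocytic cells of its sinusoidal gate Junb with Ier2, at 0.59. The highest pairs of the controls stood at 0.42 and 0.37. Jchain-high cells had 32 of 45 and 25 of 36 pairs above 0 under the knockout and control labels, monocytic cells 34 of 45 and 34 of 36. Granule protease cells had 15 of 28 and 9 of 15, at mean r of 0.05 and 0.12. No share over other gene pairs is given beside these counts, so nothing is read from them.

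**Figure D4:**
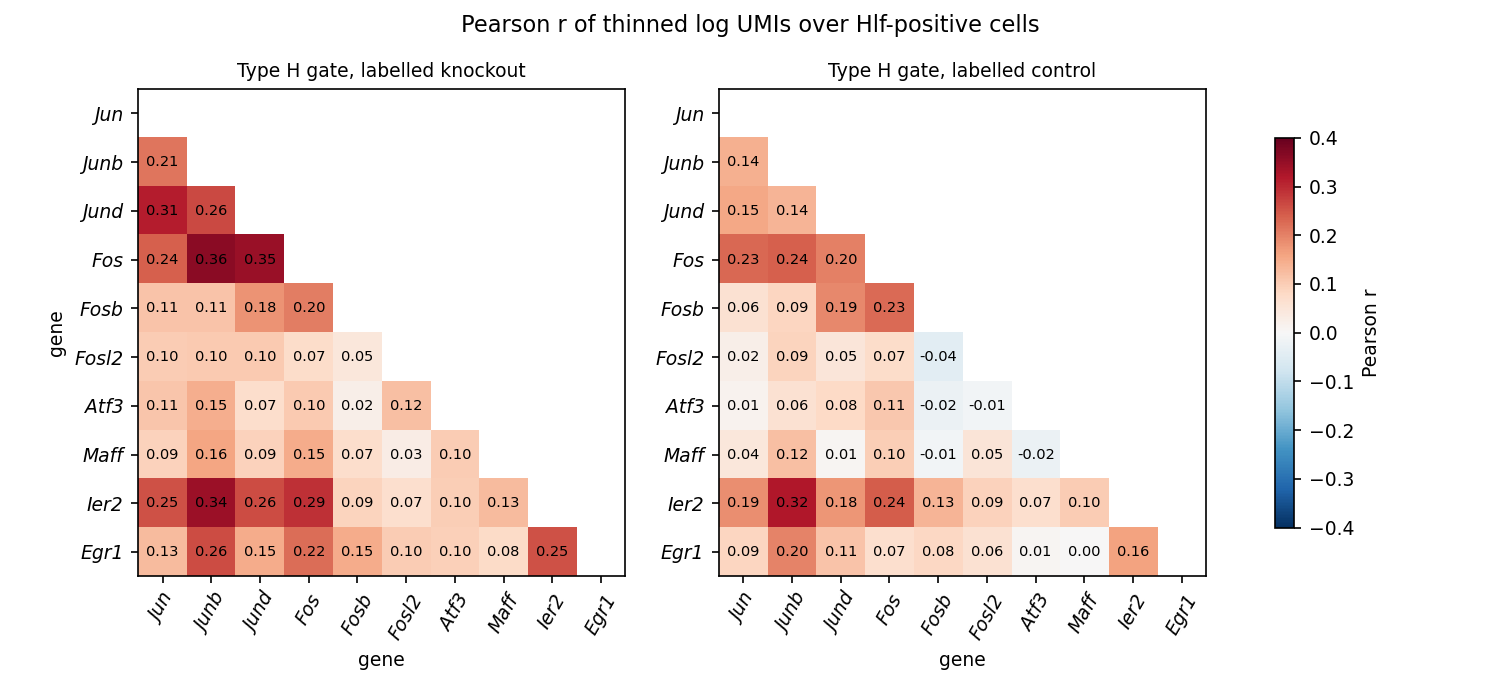
Pearson r between each pair of the 10 genes over Hlf-positive cells thinned to 2000 UMIs, on log(1 + UMIs), for the labelled knockout (left, 1211 cells) and the labelled control (right, 543 cells). Red squares gather among Jun, Junb, Jund, Fos and Ier2, with a highest value of 0.36 at the left and 0.32 at the right.

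Among 2475 genes with a UMI in at least 10% of thinned Hlf-positive cells of both libraries, those most like the summed members across cells were H3f3b, at a mean r of 0.46, Dusp1 and Ppp1r15a, at 0.36 each, Nr4a2, at 0.33, Klf2, at 0.32, and Btg2, at 0.30. H3f3b encodes the replication-independent histone H3.3, Dusp1 a phosphatase of MAP kinases, Ppp1r15a a stress-induced phosphatase subunit, Nr4a2 a nuclear receptor, Klf2 a Krüppel-like factor, and Btg2 an antiproliferative protein. The likeness is over 1211 and 543 cells, and each r is the mean of the values of the 2 libraries. Genes alike across cells had unequal label differences: Klf2 had 434 CPM under the knockout label and 219 CPM under the control label, a ratio of 1.98 (1.84 to 2.14), whereas Dusp1 had 427 and 364 CPM, a ratio of 1.17 (1.10 to 1.25). Of the 6 genes least like the members, Hmgb2 and H2afz, at -0.22 each, and Cks2, at -0.18, are known to be high in dividing cells. The others were Tuba1b and Gm42418, at -0.17 each, and Ptma, at -0.16.

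Other genes of the pathway were read in Hlf-positive cells as whole lists, which were drawn up with earlier results known. Of 18 other AP-1 and CREB/ATF family genes, 14 had at least 20 UMIs, and 1 was at least 1.5-fold higher and 0 lower, beside 5.13% and 2.9% of all genes, with a median log2 ratio of 0.03. That gene was Maf, a large Maf factor, with 16.8 CPM under the knockout label and 10.2 CPM under the control label, a ratio of 1.64 (1.14 to 2.40). Of 30 other immediate-early genes, 27 had enough UMIs, with 6 past 1.5-fold upward and 0 downward, beside the same shares of all genes, and a median of 0.22. Next to Klf2, they included Nr4a1, an orphan nuclear receptor, with 238 CPM under the knockout label and 138 CPM under the control label, a ratio of 1.72 (1.56 to 1.90), Btg2, with a ratio of 1.59 (1.46 to 1.74), and Rhob, a small GTPase, with a ratio of 1.55 (1.35 to 1.79).

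Genes upstream and downstream of AP-1 were read in Hlf-positive cells too, with 5.13% of all genes past 1.5-fold upward and 2.9% downward. Of 22 kinases and factors upstream of these genes, 21 were matched in the files, and 1 was at least 1.5-fold higher and 0 lower, with a median of 0.08. It was Map3k1, a kinase at the head of the JNK cascade, with 21.1 CPM under the knockout label and 13.5 CPM under the control label, a ratio of 1.56 (1.13 to 2.16). Of 10 heat shock genes, which are known to be induced by heat and by harsh dissociation, 7 had enough UMIs, 0 passed 1.5-fold in either direction, and the median was -0.12. Hspa1a had 3 UMIs under the knockout label and 14 under the control label. Of 14 common target genes of AP-1, 10 had enough UMIs, with 2 higher and 2 lower and a median of -0.09. With lists this short, these counts are given beside those shares and nothing is read from them.

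The granule protease cells of the sinusoidal gate had at least 1% of UMIs from Mpo, Elane, Prtn3 and Ctsg, the proteases of granulocyte precursors. They numbered 322 under the knockout label and 70 under the control label. Over each whole library, 33 and 6 cells lay within 20% of that limit, on either side. The levels of the 10 members summed to 699 CPM under the knockout label and 568 CPM under the control label. Of 8 members with enough UMIs, 3 were at least 1.5-fold higher and 1 lower, beside 9.14% and 9.08% of all genes. Jun had 162 CPM under the knockout label and 98.7 CPM under the control label, a ratio of 1.64 (1.36 to 1.99), and Fos 135 and 79.7 CPM, a ratio of 1.69 (1.38 to 2.09). Fosb had 93 UMIs under the knockout label and 5 under the control label, a ratio of 4.38 (1.81 to 13.8). Jund, at 81.4 CPM under the knockout label and 64.6 CPM under the control label, had a ratio of 1.26 (0.998 to 1.61), and Junb 0.844 (0.693 to 1.04), so neither differed beyond counting error. Atf3 was the one that stood lower, with 26 UMIs under the knockout label and 17 under the control label, a ratio of 0.360 (0.188 to 0.707) after scaling. The 3 erythroid markers summed to 174 CPM under the knockout label and 4162 CPM under the control label in this class, and the 4 later neutrophil markers to 5571 and 3497 CPM, and their part in these ratios was not tested. In the 44 and 16 cells with Xist and no Y-linked UMIs, 3 of 5 members were at least 1.5-fold higher and 0 lower, beside 12.6% and 14% of all genes. In the 205 and 42 cells with the reverse, 2 of 8 were higher and 2 lower, beside 11% and 10.6%.

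Monocytic cells of the sinusoidal gate (Csf1r, Ms4a6c, Ly6c2, F13a1, Ctss and Ms4a4c at least 0.2% of UMIs, with few granule genes) had high levels of several members. Within the knockout library Fos was 6.20-fold (5.66 to 6.79) and Atf3 23.6-fold (15.6 to 37.2) higher in them than in granule protease cells, and within the control library 21.7-fold (17.8 to 26.6) and 21.3-fold (13.1 to 37.1). There were 132 such cells under the knockout label and 179 under the control label. Over each whole library, 61 and 29 cells of any class had a monocyte share within 20% of the limit, on either side. By label, 7 of 9 members with enough UMIs were at least 1.5-fold lower under the knockout label and 0 higher, beside 18.4% and 17.2% of all genes, and the median log2 ratio over all 10 was -1.06. In the 61 and 79 monocytic cells with Y-linked and no Xist UMIs, 6 of 9 were lower and 1 higher, beside 20.8% and 20.5% of all genes.

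Over the whole class, the direction in monocytic cells was the opposite of that in the type H gate. Jund had 123 CPM under the knockout label and 372 CPM under the control label, a ratio of 0.330 (0.276 to 0.393). Junb had 317 CPM under the knockout label and 939 CPM under the control label, a ratio of 0.338 (0.303 to 0.377), and Fos 834 and 1728 CPM, a ratio of 0.483 (0.449 to 0.519). Atf3 had 110 CPM under the knockout label and 276 CPM under the control label, a ratio of 0.398 (0.327 to 0.482). Fosl2, at 45.8 and 47.2 CPM, with a ratio of 0.971 (0.666 to 1.42), did not differ beyond counting error. Of the other immediate-early genes, 21 of 26 with enough UMIs were at least 1.5-fold lower and 1 higher, beside 18.4% and 17.2% of all genes. Among the lower ones were Zfp36l1, which speeds mRNA decay, at a ratio of 0.195 (0.105 to 0.345), and Btg2, at 0.336 (0.283 to 0.398).

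Depth and make-up differed between these monocytic cells. Their median was 11676 UMIs under the knockout label and 5436 UMIs under the control label, the 4 granule proteases summed to 3887 and 1457 CPM, the 6 monocyte markers to 6837 and 7766 CPM with none at 0, and the r of the summed members with log depth was -0.67 under the knockout label and -0.27 under the control label. In the 55 and 154 cells under 8000 UMIs, a split chosen after seeing this, the median log2 ratio over the 10 members was 0.14, with 1 of 9 at least 1.5-fold higher and 1 lower, beside 9.6% and 14% of all genes. The 4 proteases summed to 658 CPM under the knockout label and 639 CPM under the control label there, and the 6 monocyte markers to 7398 and 7364 CPM. The erythroid markers summed to 207 CPM under the knockout label and 923 CPM under the control label, the later neutrophil markers to 220.5 and 436 CPM and the plasma cell markers to 227 and 219.8 CPM. Over the whole class the erythroid markers summed to 181 and 885 CPM, the later neutrophil markers to 216 and 446 CPM and the plasma cell markers to 185 and 547 CPM, and the part of these cell types in the ratios was not tested. Of the other immediate-early genes, 3 of 25 were at least 1.5-fold higher and 0 lower among cells under 8000 UMIs, beside the same shares of all genes, with a median log2 ratio of 0.07. Fos had 1927 CPM under the knockout label and 1918 CPM under the control label, a ratio of 1.004 (0.910 to 1.11), and Junb 1045 and 1168 CPM, a ratio of 0.894 (0.783 to 1.02). Jund stood lower there too, at 261 CPM under the knockout label and 415 CPM under the control label, a ratio of 0.629 (0.483 to 0.809), and Egr1 had 25 UMIs against 34, a ratio of 1.85 (1.06 to 3.19).

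In the 77 and 25 monocytic cells with at least 8000 UMIs the median over the 10 members was -1.34, with Maff and Egr1 at 1 and 2 UMIs in all, and 7 of 8 members were at least 1.5-fold lower and 1 higher, beside 16.6% and 11.8% of all genes. Fos had 578 CPM under the knockout label and 1286 CPM under the control label, a ratio of 0.449 (0.397 to 0.508). The exception was Fosl2, with 44 UMIs under the knockout label and 4 under the control label, a ratio of 2.79 (1.01 to 10.7). Of the other immediate-early genes, 14 of 19 were at least 1.5-fold lower and 1 higher in these deep cells, beside the same shares of all genes, with a median of -1.08. Depth still differed in this split, at medians of 16059 and 10835 UMIs. So did make-up: the plasma cell markers summed to 174 CPM under the knockout label and 1311 CPM under the control label. The erythroid markers summed to 174 and 799 CPM, the later neutrophil markers to 215 and 469 CPM. For the 4 granule proteases the sums were 4645 and 3365 CPM, and for the 6 monocyte markers 6705 and 8704 CPM. The part of these cell types in the ratios of the deep cells was not tested. Jund thus stood lower under the knockout label on either side of the depth limit, while Jun, Junb, Fos, Fosb, Atf3 and Ier2 did so beyond counting error among the deep cells alone. Label and depth cannot be told apart in the whole class. Of 8 heat shock genes with enough UMIs, 4 were at least 1.5-fold higher there and 0 lower, beside 17.2% and 18.4% of all genes. Under 8000 UMIs 0 of 6 passed 1.5-fold in either direction, beside 9.6% and 14% of all genes. With at least 8000 UMIs 0 of 7 were higher and 1 lower, beside 11.8% and 16.6% of all genes.

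**Figure D5:**
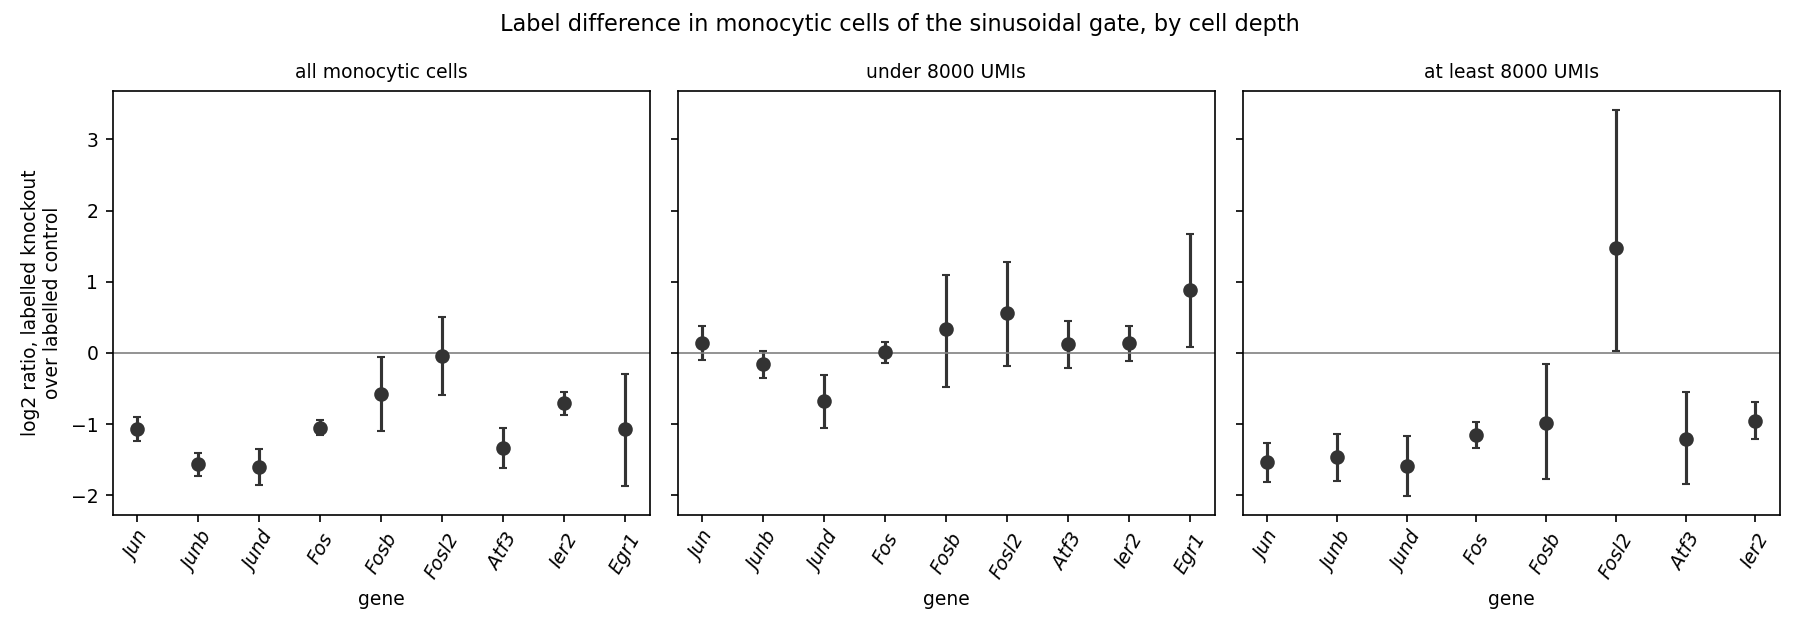
Log2 ratio of the labelled knockout over the labelled control in monocytic cells of the sinusoidal gate, for all cells, cells under 8000 UMIs and cells with at least 8000 UMIs; points are ratios of sums, bars are exact conditional intervals at the 95% level, and genes under 20 UMIs are left out. Among cells under 8000 UMIs the bars take in 0 except those of Jund at -0.66 and Egr1 at 0.89, while Fosl2 alone lies above 0 in the deep cells.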

How the data were processed

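The authors deposited 1 matrix per library of whole-number UMI counts, by gene and cell barcode, with no normalization. Per the labels' protocols, cells were captured with 10x Genomics Chromium and read with 26 and 57 cycles, and 20000 sorted cells are named in the design text. Cell Ranger, Seurat and the mm10 build are named per the submitters' processing notes, and their versions are not given. The matrices hold called barcodes, so free RNA in empty droplets was not analysed here.

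Counts were read with Python 3.11.15, NumPy 2.4.6, SciPy 1.17.1 and pandas 2.3.3. Barcodes with fewer than 200 genes, or with 10% or more mitochondrial UMIs, were left out (74). No doublet caller was run, and 1 alternative dropped cells that held UMIs of Xist as well as of Y-linked genes. Classes were set by UMIs of single genes or by shares of UMIs, as given with each result, and are ranges of a score, not cell types. UMIs were summed per class and library and scaled to CPM, with exact Poisson, Clopper-Pearson (shares of cells) and conditional (ratios) 95% intervals, which take in counting error only. Log2 ratios had 0.5 UMIs added to each sum, and genes needed 20 UMIs in both sums together to be counted at 1.5-fold. For shares and correlations each cell was thinned to 2000 UMIs. The scripts were tested on simulated data.

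The members, lists and classes were chosen with earlier results of these data known. Genes outside the members were named by size: up to 4 per list and class at least 1.5-fold apart with an interval that leaves out 1, and the 6 genes most like the members across cells; the genes least like them were added after their values were seen. Promoters came from RefSeq (GRCm38.p6). Alternatives were other cell filters, scalings, class limits, thinning, equal weight per cell and sex-linked splits.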

Additional observations from a re-analysis of the deposited data

Results flagged for a closer look

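Several members differed by label in opposite directions in the 2 gates. They stood higher under the knockout label in Hlf-positive cells of the type H gate and lower in monocytic cells of the sinusoidal gate, while in the granule protease cells of that gate Atf3 stood lower and Jun, Fos and Fosb stood higher. The difference between the gates was not tested, as each group is 1 library. In monocytic cells the log2 ratio was -1.07 for Jun, -1.56 for Junb, -1.60 for Jund, -1.05 for Fos and -0.57 for Fosb. It was -1.33 for Atf3, -0.71 for Ier2 and -1.07 for Egr1 in the same cells. Among monocytic cells under 8000 UMIs Jund kept that direction, at 261 CPM under the knockout label against 415 CPM under the control label, and Junb was at 1045 against 1168 CPM, while Jun, Fos, Fosb, Atf3, Ier2 and Egr1 had ratios at or above 1. In granule protease cells the log2 ratio of Atf3 was -1.49, from 26 UMIs under the knockout label and 17 under the control label.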

How the results depend on the processing

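Of 236 summary values under the alternatives, 215 kept their value within the limits set for them, 20 moved and 1 changed sign; of 730 values of single genes, 607 kept theirs, 113 moved and 10 changed sign. The median log2 ratio of the members stayed between 0.63 and 0.73 in Hlf-positive cells under all alternatives run, between 0.47 and 0.71 in Flt3-positive cells, and between -0.02 and 1.16 in granule protease cells. In Xist-only cells the median was 0.81 outside Jchain-high, 0.92 in Procr-positive, 0.44 in Jchain-high, 1.16 in granule protease and -1.57 in monocytic cells, the members at least 1.5-fold higher were 4 in Hlf-positive and 1 in Jchain-high cells, the members at least 1.5-fold lower in granule protease cells were 0, Ier2 and Egr1 in Jchain-high cells were -0.49 and -0.36, and the mean r in Hlf-positive cells of the labelled knockout was 0.22 (81 cells). In Y-linked-only cells the median in Jchain-high cells was 1.01, 2 members were lower in granule protease cells and 1 was higher in monocytic cells. The other class limits left 1 member higher in granule protease cells. In monocytic cells, thinning gave a median of -0.45 with 4 members lower, Fosb at 0.37 and Egr1 at 0.065, and equal weight per cell gave -0.51 with 4 lower. The splits by depth, added after seeing the data, gave 0.14 under 8000 UMIs with 1 higher and 1 lower, Jun at 0.14, Fos at 0.0072, Fosb at 0.35, Atf3 at 0.13, Ier2 at 0.14 and Egr1 at 0.89, and 1 higher with at least 8000 UMIs. The causes were not tested. No paired analysis was possible because each group is 1 library. Few UMIs limit Atf3, Maff and Fosl2, and 1 library per group leaves the spread between mice unknown.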

Other observations

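Levels of AP-1 target genes in monocytic cells under 8000 UMIs, a class that was read only after seeing the data, stood higher under the knockout label for some cytokine genes. Cxcl2, a neutrophil-attracting chemokine, had 648 CPM under the knockout label and 333 CPM under the control label, a ratio of 1.94 (1.60 to 2.36). Ccl2, a monocyte-attracting chemokine, had 343 CPM under the knockout label and 158 CPM under the control label, a ratio of 2.17 (1.65 to 2.86). Hmox1, a heme-degrading enzyme, had 189.9 CPM under the knockout label and 86.3 CPM under the control label, a ratio of 2.20 (1.51 to 3.20). In the monocytic cells with at least 8000 UMIs both chemokines went the other way, with 12 UMIs of Cxcl2 under the knockout label and 35 under the control label, a ratio of 0.0869 (0.0411 to 0.171), and Ccl2 had 54 and 29 UMIs, a ratio of 0.472 (0.295 to 0.768). Of the 14 target genes 8 had at least 20 UMIs in the shallower cells, and 3 were at least 1.5-fold higher and 0 lower, beside 9.6% and 14% of all genes.

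In Jchain-high cells of the type H gate 15 of 26 other immediate-early genes with enough UMIs were at least 1.5-fold higher under the knockout label and 0 lower, beside 17.4% and 5.45% of all genes. The median log2 ratio of all genes was 0.14 there, and no count relative to the median gene is given for this list. Jchain and markers of other cell types differed by label in this class, as given above, and their part in these ratios was not tested. Nr4a2 had 41 UMIs under the knockout label and 5 under the control label, a ratio of 4.95 (1.958 to 16.0). Tnfaip3, an inhibitor of NF-kappaB signalling, had 46 UMIs under the knockout label and 9 under the control label, a ratio of 3.09 (1.49 to 7.17).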
